A study of Mus musculus with 6 samples.

Results

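The genes described here carry out cell division from chromosome condensation to the final split of the daughter cells. The 44 genes were taken by name from a list of mitotic spindle, kinetochore and cytokinesis genes, out of 54532 genes with an expression value. Each of the 44 symbols was found as written, on 15 chromosomes. The list was chosen by name and function, without the use of a measured value in its rule, but with earlier results of these data known.

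RNA-seq was made from hearts of 2 groups of mice, all at 4 days of age. In the Wtap-CKO group (3 libraries) Wtap had been conditionally knocked out. The group it was set against carried the floxed allele on both copies, Wtapflox/flox, here called Wtap-flox (3 libraries). Wtap is the adaptor subunit of the nuclear complex that writes m6A, a methyl mark on adenosine in RNA. The promoter that drives Cre, the deleted exons, the sex and strain of the mice and the number of hearts behind each library are not stated by the labels. Nor do they state whether the Wtap-flox mice carried Cre. The submitters call the 3 libraries of each group independent biological replicates. Levels are FPKM, fragments scaled by gene length and library size, so they can be compared between genes.

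In mitosis, condensin and topoisomerase II compact the replicated chromosomes and motor proteins build a bipolar spindle. Kinetochores attach each chromosome to spindle microtubules. The spindle checkpoint holds back the anaphase-promoting complex until every chromosome is attached. The central spindle and an actin ring then divide the cell. In the mouse heart, cardiomyocytes still enter the cell cycle in the first days after birth, and many finish the last round with nuclear division but no cytokinesis, which leaves binucleate cells. Most of the genes below are transcribed late in the cycle and are close to silent in resting cells, so in whole tissue their RNA follows both how many cells divide and how much RNA each dividing cell holds. In these bulk samples, fewer dividing cells and less RNA per dividing cell cannot be told apart.

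Many late cell cycle promoters hold a pair of short motifs close to the start of transcription. The cell cycle homology region (TTTGAA or TTCGAA) is bound by complexes that contain MuvB, and CCAAT is bound by NF-Y. The rule for the members did not use these letters. Of the 37 members with a promoter in the RefSeq table, 8 hold both motifs in the 120 bases before a start and 9 hold neither. The first 5 promoters below were picked from those 8 to show both motifs across the range of fold changes: Top2a, Kif11 and Prc1, which fell in Wtap-CKO hearts, Cdc20, which did not pass the test, and Ube2c, with the smallest difference of the 44. Nusap1, which also fell, is shown as a contrast, since it holds neither motif in this stretch or in the wider window described next. Each line gives the 120 bases before a RefSeq start in GRCm38.p6, read 5′ to 3′ on the strand of the gene. Capitals mark a match to either motif on either strand, so that TTTGAA can appear as TTCAAA and CCAAT as ATTGG. The stretches are chr11:99024190-99024309 on the minus strand for Top2a, chr19:37376262-37376381 on the plus strand for Kif11, chr7:80294356-80294475 on the plus strand for Prc1, chr4:118437344-118437463 on the minus strand for Cdc20, chr2:164769809-164769928 on the plus strand for Ube2c and chr2:119618178-119618297 on the plus strand for Nusap1.
Top2a: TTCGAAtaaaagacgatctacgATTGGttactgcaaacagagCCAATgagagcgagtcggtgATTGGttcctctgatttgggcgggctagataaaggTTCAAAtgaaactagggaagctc
Kif11: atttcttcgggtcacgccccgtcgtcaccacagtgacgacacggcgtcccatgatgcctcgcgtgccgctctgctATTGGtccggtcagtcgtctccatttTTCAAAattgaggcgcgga
Prc1: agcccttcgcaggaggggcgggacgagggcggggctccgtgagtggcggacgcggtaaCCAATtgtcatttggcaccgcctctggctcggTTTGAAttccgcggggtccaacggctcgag
Cdc20: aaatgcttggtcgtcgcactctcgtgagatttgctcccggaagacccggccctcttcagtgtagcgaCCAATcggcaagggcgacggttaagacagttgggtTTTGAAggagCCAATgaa
Ube2c: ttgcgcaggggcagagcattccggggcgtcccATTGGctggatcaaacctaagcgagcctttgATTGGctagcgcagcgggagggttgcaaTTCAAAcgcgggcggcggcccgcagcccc
Nusap1: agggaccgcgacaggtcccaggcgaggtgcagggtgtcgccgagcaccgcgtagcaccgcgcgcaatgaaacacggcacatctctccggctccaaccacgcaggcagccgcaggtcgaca

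In these letters Top2a holds 3 CCAAT matches and 2 matches to the cell cycle homology region, and Ube2c, whose difference between the groups was the smallest, holds 2 and 1. Over the wider window of 250 bases before to 50 after the start, 37 members had 39 RefSeq promoters. Aurkb, Kif20a, Tpx2, Incenp, Smc4, Pbk and Dlgap5 had none in the table. The cell cycle homology region was present in 31 of the 39 promoters (79.5%), against 13.7% of 11576 promoters of all tested genes and 19.2% of all 32851 promoters. CCAAT was present in 28 (71.8%), against 37.6% and 37.4%. Both were present in 69.2%, against 5.64% and 7.52%. The E2F letters TTTGGCGC or TTTCGCGC were present in 2 (5.13%), against 1.53% and 0.813%. The 42 matches to the cell cycle homology region had a median position of -17.5 bases from the start, and 28 of them lay within 50 bases of it. The 63 CCAAT matches had a median position of -71 bases, and 61 lay before the start. Matches were counted per promoter, so a site shared by the overlapping promoters of Ect2 or of Prc1 is counted in each. Members that fell and members that were not called had similar shares: the cell cycle homology region was in 78.6% of 14 promoters of members called lower and in 80.0% of 25 promoters of members not called, and CCAAT was in 71.4% and 72.0%. These shares describe letters in a window and carry no test, and a match is not evidence that a factor binds there.

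The libraries held between 15649028 and 18045599 reads recovered from the deposited values. Wtap itself was measured at 9.32, 7.75 and 9.46 FPKM in Wtap-CKO 1 to 3 and at 7.77, 8.74 and 10.9 FPKM in Wtap-flox 1 to 3. Its groups overlapped, with a log2 fold change of -0.04 and a limma adjusted p of 0.893. Since the deleted exons are not known here, this level over the whole gene does not check the labels. The tissue label was checked against heart genes: all 10 cardiomyocyte markers were detected in every library, and their summed level was 11007 to 15198 FPKM in Wtap-CKO hearts and 11963 to 13984 FPKM in Wtap-flox hearts. The first principal component of all tested genes, with 52.6% of the variance, separated the groups. The second, with 20.4%, spread the Wtap-CKO libraries. Wtap-CKO 3 lay at one end (-28.1), Wtap-CKO 1 and 2 at the other (14.7 and 21.3), and the Wtap-flox libraries between them.

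A control library, Wtap-flox 1, stands apart in these genes. It was the lowest of the 3 Wtap-flox libraries in 44 of 44 members, while this held for 41.6% of all tested genes. Its level was a median of 0.659 times the mean of Wtap-flox 2 and 3 over the members (range 0.456 to 0.873), and 0.973 times over all tested genes. Wtap-flox 3 was the highest of the 6 libraries in 40 members and Wtap-flox 2 in the remaining 4. For comparison, Wtap-flox 3 was the highest of 6 in 17.3% of all tested genes. Wtap-flox 2 and 3 both lay above all 3 Wtap-CKO libraries in 44 of 44 members, which was so for 21.9% of all tested genes. The spread between replicates was therefore wide on the control side: the median coefficient of variation was 9.38% in Wtap-CKO and 24.5% in Wtap-flox hearts, against 14.7% and 11.8% over all tested genes. It was larger in Wtap-flox for 41 of 44 members and for 39.1% of all tested genes.

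**Figure D1:**
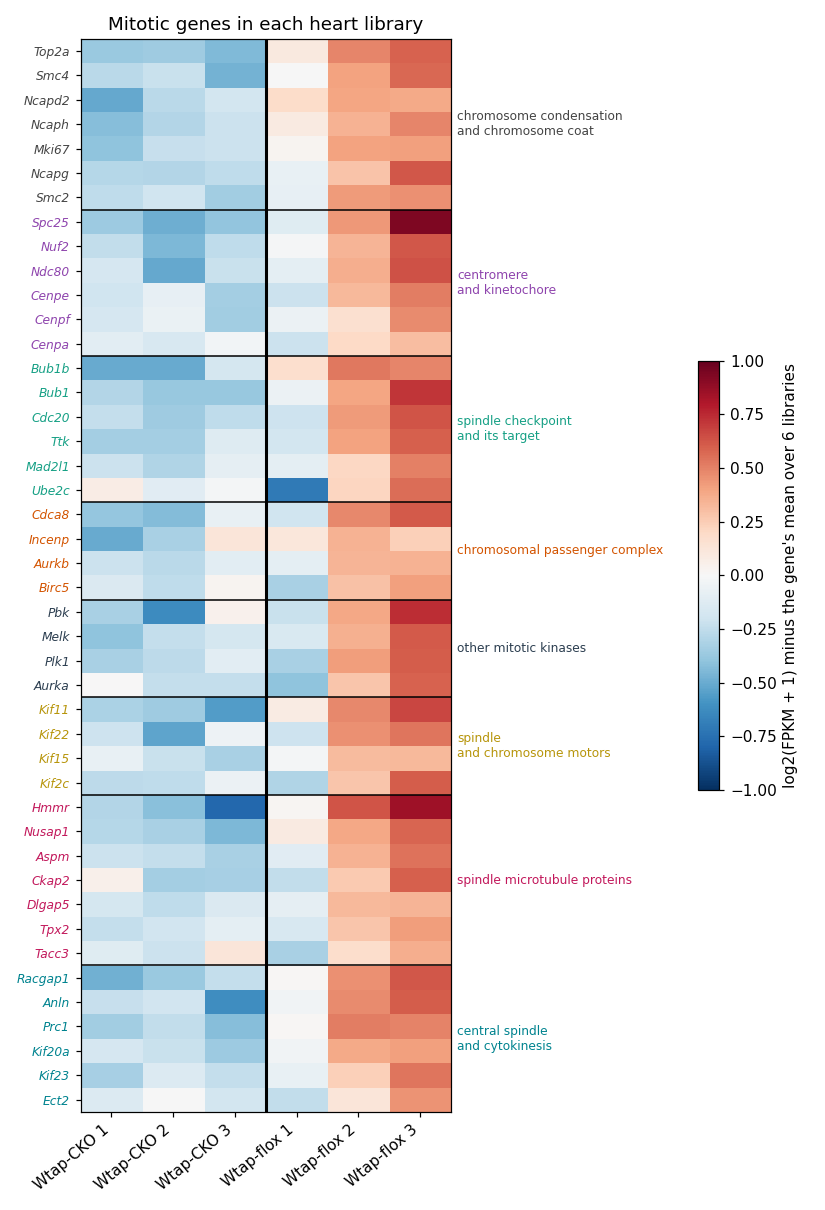
Level of each of the 44 genes (rows, grouped by role) in each library (columns), as log2(FPKM + 1) minus the mean of that gene over the 6 libraries; blue is below and red above that mean. Wtap-CKO 1 to 3 are mostly blue, Wtap-flox 1 is pale in most genes, and Wtap-flox 2 and 3 are red in every gene.

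Part of the mitotic genes fell in Wtap-CKO hearts, and the rest did not pass the test. Of the 44 members, 15 were lower and 0 were higher at an adjusted p below 0.05 (limma on log2(FPKM + 1), adjusted by Benjamini-Hochberg over the 12568 genes whose mean reached 1 FPKM). Of all tested genes, 6.69% were called lower and 9.91% higher. All 44 members passed the filter and all 44 had a log2 fold change below 0, with a median of -0.54 and a range from -1.001 (Hmmr) to -0.04 (Ube2c). The median over all tested genes was 0.00. In FPKM, the group mean was a median of 35.0% lower in Wtap-CKO hearts. The 29 members not called hold 17 more with an unadjusted p below 0.05, which makes 32 lower and 0 higher at that level. Of all tested genes, 14.2% were lower and 17.5% higher at that level.

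The groups did not overlap in 27 members, in which all 3 Wtap-CKO values were below all 3 Wtap-flox values. This was so for 17.3% of all tested genes, and the opposite, with all Wtap-CKO values above, was so for 0 members and for 19.8% of all tested genes. In the other 17 members Wtap-flox 1 was at or below the highest Wtap-CKO value, and in 8 of them it was the lowest of all 6 libraries. Summed over the 44 genes, the level was 422, 411 and 436 FPKM in Wtap-CKO 1 to 3 (423 ± 12.3, SD, n = 3) and 464, 668 and 759 FPKM in Wtap-flox 1 to 3 (630 ± 151, SD, n = 3). All 3 sums in Wtap-CKO hearts lie below all 3 in Wtap-flox hearts, and the exact two-sided permutation p of 0.1 is the smallest that 3 against 3 can give.

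How many members pass depends on which library is left out. Without Wtap-flox 1, 33 members were lower (4.16% of all tested genes) and the median log2 fold change was -0.72. Without Wtap-flox 2, 4 were lower (3.32% of all tested genes), and without Wtap-flox 3, 5 were lower (3.67%), with a median of -0.39. Without Wtap-CKO 1, 5 were lower (3.56%), and without Wtap-CKO 2 or Wtap-CKO 3, 11 were lower in each case (5.53% and 6.6%). Top2a, Kif11, Bub1b and Nusap1 were called lower in each of these 6 fits.

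The other 11 members called lower lost the call when particular libraries were left out. Ncapd2 lost it without Wtap-CKO 1 or Wtap-flox 2 (limma adjusted p up to 0.0608). Mki67, Prc1, Ncaph and Racgap1 lost it without Wtap-CKO 1, Wtap-flox 2 or Wtap-flox 3, with adjusted p up to 0.109, 0.0767, 0.0642 and 0.0735 in that order of genes. Hmmr lost it without Wtap-CKO 2, Wtap-CKO 3, Wtap-flox 2 or Wtap-flox 3 (up to 0.0723). Anln and Smc4 lost it without Wtap-CKO 1, Wtap-CKO 3, Wtap-flox 2 or Wtap-flox 3 (up to 0.125 and 0.103), and Nuf2 without Wtap-CKO 1, Wtap-CKO 2, Wtap-flox 2 or Wtap-flox 3 (up to 0.0967). Bub1 and Kif20a kept it only without Wtap-flox 1, with adjusted p up to 0.0974 and 0.161 in the other fits. All of these kept a log2 fold change below 0 in each fit.

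**Figure D2:**
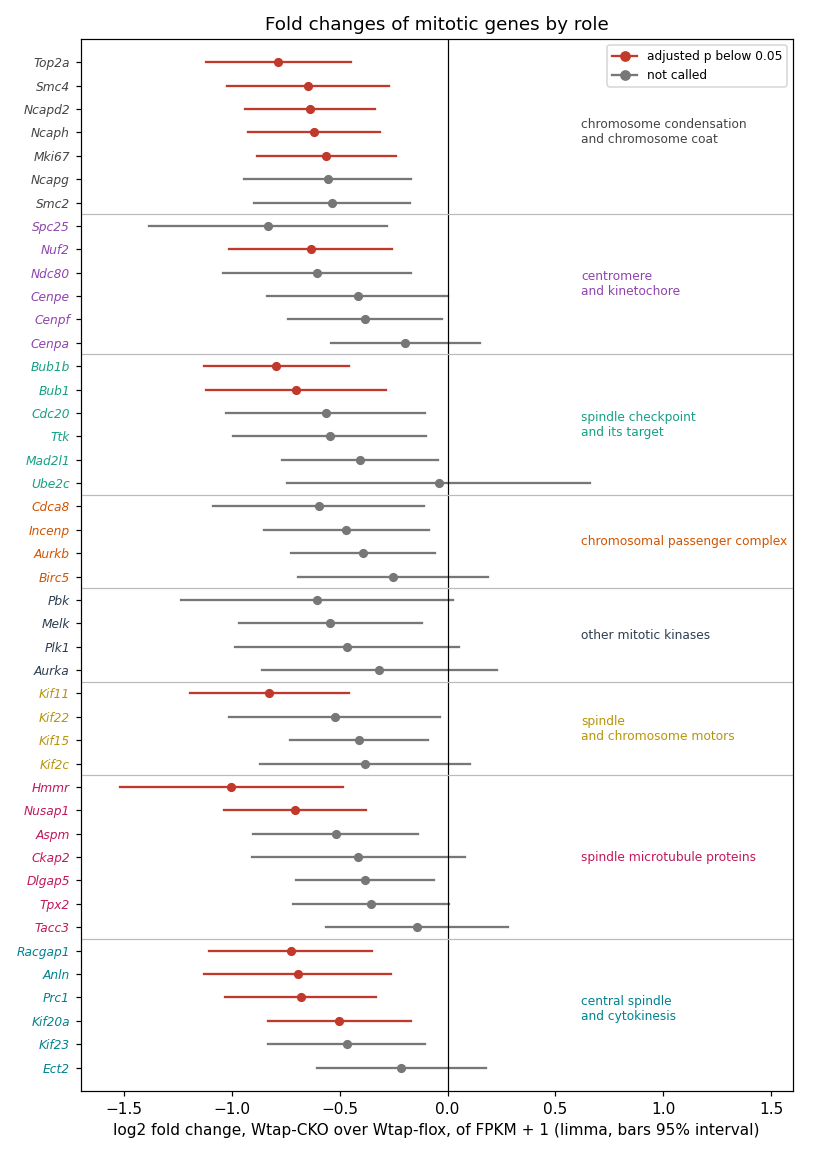
The log2 fold change of FPKM + 1, Wtap-CKO over Wtap-flox, for each of the 44 genes in order of role, with its 95% interval from limma; red genes have an adjusted p below 0.05 and grey genes do not. All points lie left of 0, from -1.001 for Hmmr to -0.04 for Ube2c, and the intervals of the 15 red genes end below 0.

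Chromosome condensation had 5 of 7 genes lower, with a median log2 fold change of -0.62 and no overlap between the groups in any of the 7. Over all tested genes, 6.69% were called lower, and 17.3% had all Wtap-CKO values below all Wtap-flox values. These shares stand beside the counts of every role below. Top2a (ENSMUSG00000020914, chr11:98992943-99024189 on the minus strand in GRCm38), the topoisomerase that untangles sister chromatids, had 16.3, 16.5 and 15.5 FPKM in Wtap-CKO 1 to 3 and 23.0, 30.4 and 32.9 FPKM in Wtap-flox 1 to 3. The 3 Wtap-CKO values lie close together, and even Wtap-flox 1 is well above them (log2 fold change -0.78, 95% interval -1.12 to -0.45, limma adjusted p = 0.00875). Smc4, a core ATPase of condensin and the member of this role with the highest mean, had 20.2, 20.8 and 17.4 FPKM in Wtap-CKO hearts and 24.4, 32.7 and 37.1 FPKM in Wtap-flox hearts (-0.65, interval -1.02 to -0.27, adjusted p = 0.0304). Ncapd2, a subunit of condensin I, had 16.3, 19.4 and 20.6 FPKM in Wtap-CKO hearts and 26.9, 31.3 and 31.0 FPKM in Wtap-flox hearts, and was among the members in which Wtap-flox 1 was least apart from its group (-0.64, interval -0.94 to -0.34, adjusted p = 0.0135).

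Ncaph, which links the condensin I subunits, had 6.30, 7.02 and 7.47 FPKM in Wtap-CKO hearts and 9.46, 11.5 and 12.7 FPKM in Wtap-flox hearts (-0.62, adjusted p = 0.0162). Mki67 encodes Ki-67, the chromosome coat protein used as a marker of cycling cells, and had 14.1, 15.99 and 16.2 FPKM in Wtap-CKO hearts and 19.2, 25.4 and 25.5 FPKM in Wtap-flox hearts (-0.56, adjusted p = 0.0285). The other condensin genes missed the threshold by little. Ncapg had 2.11, 2.11 and 2.19 FPKM in Wtap-CKO hearts and 2.61, 3.64 and 4.83 FPKM in Wtap-flox hearts (-0.55, adjusted p = 0.0563), and Smc2, the partner ATPase of Smc4, had a log2 fold change of -0.54 (adjusted p = 0.0505). In a GRCm39 annotation, 25.01% of the exon bases of Ncapg are shared with Lcorl, which runs on the opposite strand. Lcorl had 0.963 ± 0.1499 FPKM in Wtap-CKO and 1.12 ± 0.0765 FPKM in Wtap-flox hearts (SD, n = 3 each). That annotation gives Ncapg 8468 exon bases, against a counted length of 7066, so the shared part of the counted gene is not known. The same limit holds for the shared exon bases given below.

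At the kinetochore, 1 of 6 genes was lower, with a median log2 fold change of -0.51. That gene was Nuf2, a subunit of the Ndc80 complex, which grips the microtubule end. It had 4.17, 3.50 and 4.16 FPKM in Wtap-CKO hearts and 5.10, 6.79 and 8.46 FPKM in Wtap-flox hearts, with no overlap (-0.63, interval -1.01 to -0.26, limma adjusted p = 0.0325). Its partners in the same complex stood just outside the threshold. Spc25 had a log2 fold change of -0.83 (adjusted p = 0.0505) and Ndc80 one of -0.60 (adjusted p = 0.0637), each with no overlap between groups. In Spc25, 52.5% of the exon bases are shared with Nostrin on the opposite strand, whose own log2 fold change was -0.08 (adjusted p = 0.696). The motor Cenpe (-0.42) and the corona protein Cenpf (-0.38) did not pass. Cenpa, the histone variant that marks centromeres, had the highest mean level and the largest adjusted p of this role: 18.2, 17.5 and 19.4 FPKM in Wtap-CKO hearts and 16.8, 22.8 and 24.7 FPKM in Wtap-flox hearts. There Wtap-flox 1 is the lowest of all 6 libraries, and the fold change was -0.20 (interval -0.54 to 0.15, adjusted p = 0.422).

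Of the spindle checkpoint genes and the ubiquitin machinery they hold back, 2 of 6 were lower, and both encode checkpoint kinase family members at the kinetochore. Bub1b (BubR1; ENSMUSG00000040084, chr2:118598211-118641591 on the plus strand in GRCm38), part of the complex that inhibits Cdc20, had the smallest adjusted p of the 44. It was at 8.01, 8.01 and 10.3 FPKM in Wtap-CKO hearts and 13.4, 17.5 and 16.98 FPKM in Wtap-flox hearts (-0.79, interval -1.13 to -0.46, limma adjusted p = 0.00839). Bub1, the kinase that recruits other checkpoint proteins, was at 5.50, 5.13 and 5.15 FPKM in Wtap-CKO hearts and 6.67, 9.49 and 12.1 FPKM in Wtap-flox hearts (-0.70, interval -1.12 to -0.29, adjusted p = 0.0323). In both genes all 3 Wtap-CKO values lie below all 3 Wtap-flox values. The kinase Ttk (-0.55, adjusted p = 0.0941) and Mad2l1 (-0.41, adjusted p = 0.119), the inhibitor that binds Cdc20, did not pass.

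Neither member of the ubiquitin machinery that the checkpoint holds back, Cdc20 or Ube2c, was called. Cdc20, the activator of the anaphase-promoting complex, was separate between groups by little. Its highest Wtap-CKO value was 28.2 FPKM and Wtap-flox 1 was at 28.9 FPKM. The gene missed the threshold (-0.56, interval -1.02 to -0.10, limma adjusted p = 0.0929). It was called lower in 7 of 21 other settings of the fit, among them the fit without Wtap-flox 1 (-0.81, limma adjusted p = 0.0142). Ube2c (ENSMUSG00000001403, chr2:164769898-164778822 on the plus strand in GRCm38), which hands ubiquitin to that complex, was the member with the highest mean level and the largest adjusted p of all 44. It was at 42.2, 36.9 and 39.4 FPKM in Wtap-CKO hearts and 24.1, 46.5 and 59.3 FPKM in Wtap-flox hearts. The Wtap-CKO values lie between those of Wtap-flox 1 and Wtap-flox 2, and the fold change was -0.04 with an interval from -0.74 to 0.66 (adjusted p = 0.939). Leaving out Wtap-flox 3 turned its direction (0.23), and leaving out Wtap-flox 1 gave -0.40 (adjusted p = 0.164). Of its exon bases, 19.0% are shared with Tnnc2, which was close to 0 FPKM in all 6 libraries.

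No gene of the chromosomal passenger complex passed in limma (0 of 4, median log2 fold change -0.43), though 3 had an unadjusted p below 0.05 (limma-voom on recovered reads also called 0). The count was 3 of 4 lower with TPM scaling, with array weights or with upper-quartile scaling, and 2 of 4 without Wtap-flox 1. In that order, these settings called 12.7%, 13.3%, 9.51% and 4.16% of all tested genes lower. At an unadjusted p below 0.05 in the main fit, 14.2% of all tested genes were lower. This complex corrects wrong attachments at the centromere and moves to the midzone at anaphase. Incenp, its scaffold, had the highest mean of the role and was at 10.3, 11.8 and 16.5 FPKM in Wtap-CKO hearts and 16.3, 19.4 and 17.9 FPKM in Wtap-flox hearts (-0.47, interval -0.85 to -0.09, limma adjusted p = 0.0934). Here Wtap-CKO 3 is the library that meets the other group. Birc5, survivin, was at 13.1, 12.1 and 14.9 FPKM in Wtap-CKO hearts and 11.5, 18.1 and 19.8 FPKM in Wtap-flox hearts (-0.25, interval -0.69 to 0.19, adjusted p = 0.415). The kinase Aurkb (-0.39, adjusted p = 0.103) had no overlap between groups, though its highest Wtap-CKO value (11.22 FPKM) was close to Wtap-flox 1 (11.26 FPKM). In Cdca8, borealin, the groups overlapped (-0.60, adjusted p = 0.0946).

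The other mitotic kinases did not pass either (0 of 4 in limma and in limma-voom, 1 with an unadjusted p below 0.05, median -0.50). With array weights 3 of 4 were lower (13.3% of all tested genes), and with TPM or upper-quartile scaling 1 of 4 (12.7% and 9.51% of all tested genes). Plk1, which acts at centrosomes, kinetochores and the midzone, was at 13.3, 13.9 and 15.6 FPKM in Wtap-CKO hearts and 13.3, 22.9 and 26.3 FPKM in Wtap-flox hearts. Wtap-flox 1 is close to the lowest Wtap-CKO value and just below it, and the interval of the fold change spans 0 (-0.46, -0.98 to 0.06, limma adjusted p = 0.204). Aurka, the spindle pole kinase, was at 14.0, 11.7 and 11.7 FPKM in Wtap-CKO hearts and 10.3, 17.2 and 21.6 FPKM in Wtap-flox hearts (-0.32, interval -0.86 to 0.23, adjusted p = 0.404). Aurka shares 38.6% of its exon bases with genes on the opposite strand. Most of the shared bases lie in Fam210b, and the rest in Cstf1 and a further gene. Fam210b had 4.98 ± 0.342 FPKM in Wtap-CKO and 3.72 ± 0.550 FPKM in Wtap-flox hearts (SD, n = 3 each). Its log2 fold change was 0.35, and it was not called (limma adjusted p = 0.0959). Cstf1 was higher in Wtap-CKO hearts (17.5 ± 0.988 FPKM, against 10.9 ± 0.958 FPKM in Wtap-flox hearts, SD, n = 3 each). Its log2 fold change was 0.64 (limma adjusted p = 0.00738). Whether the libraries keep strand is not stated, and how many of the shared bases were counted for Aurka is not known. The part of such partners in the reads of Aurka was not tested. Melk (-0.54, adjusted p = 0.0816) was separate between groups by little, with a highest Wtap-CKO value of 5.99 FPKM and Wtap-flox 1 at 6.12 FPKM. Pbk (-0.60, adjusted p = 0.173) was not separate. Without Wtap-flox 1, Plk1 (-0.74, adjusted p = 0.0181), Melk (-0.75) and Pbk (-0.87) were called lower and Aurka was not (-0.59, adjusted p = 0.0522).

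Among the spindle and chromosome motors, 1 of 4 was lower (median -0.47). Kif11 (ENSMUSG00000012443, chr19:37376403-37421859 on the plus strand in GRCm38), the kinesin that pushes spindle poles apart, was at 12.4, 12.01 and 10.3 FPKM in Wtap-CKO hearts and 16.7, 22.3 and 25.5 FPKM in Wtap-flox hearts. The groups are well apart, with a log2 fold change of -0.82 (interval -1.20 to -0.45, limma adjusted p = 0.0111). Kif2c, which takes apart microtubule ends, had the largest adjusted p of the role: 4.40, 4.41 and 5.20 FPKM in Wtap-CKO hearts and 4.23, 6.82 and 8.81 FPKM in Wtap-flox hearts (-0.38, interval -0.87 to 0.10, adjusted p = 0.259). Kif15, which can back up Kif11, had no overlap (-0.41, adjusted p = 0.0797), and the chromosome arm motor Kif22 did (-0.52, adjusted p = 0.134).

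**Figure D3:**
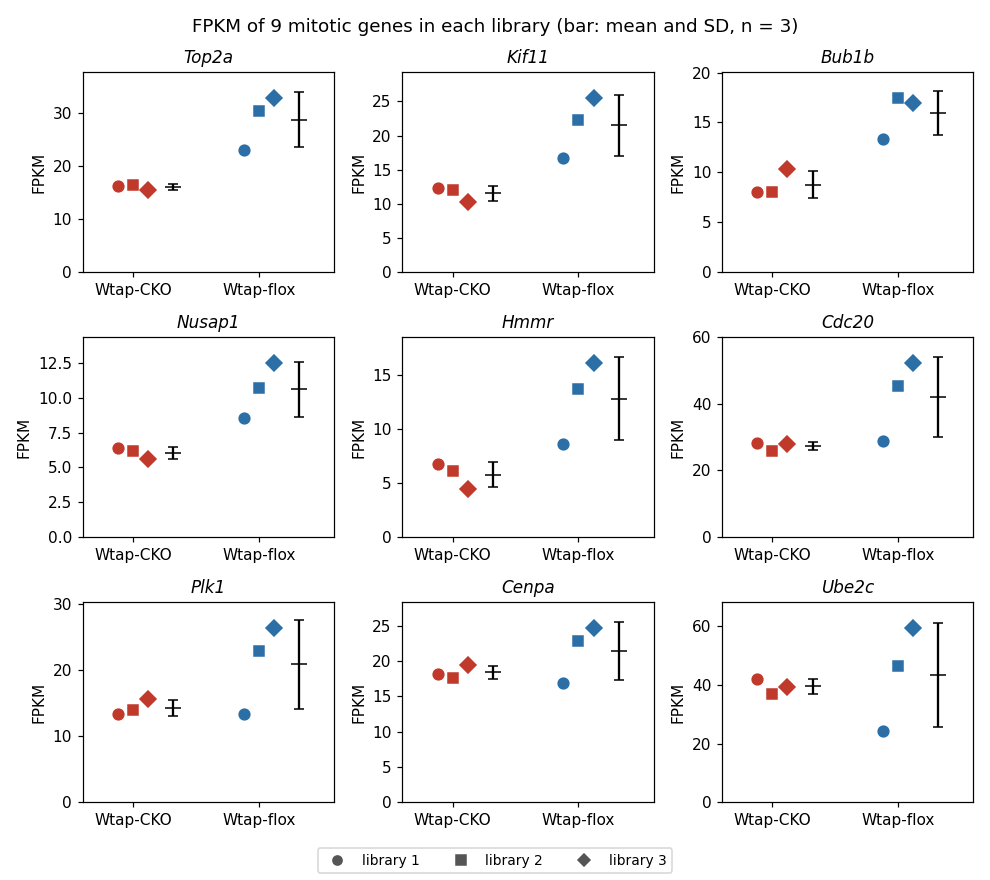
FPKM of 9 of the genes in each library, with Wtap-CKO left of Wtap-flox and the mean and SD of the 3 libraries beside each group. Top2a, Kif11, Bub1b, Nusap1 and Hmmr show 3 Wtap-CKO values below all Wtap-flox values, while in Plk1, Cenpa and Ube2c the point of Wtap-flox 1 lies at or below the Wtap-CKO points.

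Of the proteins that bind spindle microtubules, 2 of 7 were lower (median -0.41), and this role held both the largest and nearly the smallest difference of the module. Hmmr (ENSMUSG00000020330, chr11:40701395-40733422 on the minus strand in GRCm38), which binds spindle microtubules and is also a hyaluronan receptor, was at 6.73, 6.08 and 4.49 FPKM in Wtap-CKO hearts and 8.60, 13.7 and 16.1 FPKM in Wtap-flox hearts. Its mean was 54.9% lower in Wtap-CKO hearts (log2 fold change -1.001, interval -1.52 to -0.49, limma adjusted p = 0.0202). Nusap1 (ENSMUSG00000027306, chr2:119618298-119651244 on the plus strand), which bundles microtubules around chromosomes, was at 6.38, 6.19 and 5.58 FPKM in Wtap-CKO hearts and 8.58, 10.7 and 12.5 FPKM in Wtap-flox hearts (-0.71, interval -1.04 to -0.38, adjusted p = 0.0126).

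Tpx2, which activates Aurora A and nucleates spindle microtubules, had the highest mean of this role, with 12.8, 13.3 and 14.3 FPKM in Wtap-CKO hearts and 13.6, 18.8 and 20.8 FPKM in Wtap-flox hearts (-0.36, interval -0.72 to 0.00, limma adjusted p = 0.162). Tacc3, which crosslinks kinetochore fibres, was at 13.5, 12.5 and 16.1 FPKM in Wtap-CKO hearts and 11.5, 16.8 and 19.2 FPKM in Wtap-flox hearts (-0.14, interval -0.56 to 0.28, adjusted p = 0.642). Wtap-flox 1 had the lowest Tacc3 level of the 6, and without Wtap-flox 3 the fold change was 0.00. Aspm, at the spindle poles (-0.52, adjusted p = 0.0685), and Dlgap5, which stabilizes kinetochore fibres (-0.38, adjusted p = 0.0979), had no overlap between groups, and Ckap2 did (-0.41, adjusted p = 0.231).

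Central spindle and cytokinesis genes had 4 of 6 lower, with a median of -0.59 and no overlap in 5. Prc1, which bundles the antiparallel microtubules of the midzone, was at 7.29, 7.91 and 6.86 FPKM in Wtap-CKO hearts and 9.66, 14.0 and 13.9 FPKM in Wtap-flox hearts (-0.68, interval -1.03 to -0.33, limma adjusted p = 0.0188). Racgap1, the GTPase-activating part of centralspindlin, had the highest mean of the role, with 9.27, 10.1 and 11.2 FPKM in Wtap-CKO hearts and 13.5, 18.7 and 21.0 FPKM in Wtap-flox hearts (-0.73, interval -1.10 to -0.35, adjusted p = 0.0196). Its motor partner in centralspindlin, Kif23, had no overlap but was not called (-0.47, adjusted p = 0.0808). Anln, anillin, which ties the contractile ring to the membrane, was at 7.61, 7.82 and 5.56 FPKM in Wtap-CKO hearts and 8.82, 13.0 and 14.3 FPKM in Wtap-flox hearts (-0.69, interval -1.13 to -0.26, adjusted p = 0.0390).

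Kif20a, the kinesin that carries the passenger complex to the midzone, was the last member inside the threshold, with 8.87, 8.55 and 7.64 FPKM in Wtap-CKO hearts and 9.84, 13.5 and 13.7 FPKM in Wtap-flox hearts (-0.50, interval -0.83 to -0.17, limma adjusted p = 0.0474). Of its exon bases 61.5% are shared with Cdc23 and Brd8 on the opposite strand, which had log2 fold changes of -0.25 and -0.28 and were not called. Ect2, the exchange factor that switches on RhoA at the division plane, was at 5.40, 6.05 and 5.22 FPKM in Wtap-CKO hearts and 4.95, 6.67 and 8.61 FPKM in Wtap-flox hearts (-0.21, interval -0.61 to 0.18, adjusted p = 0.436). It is the member of this role in which Wtap-flox 1 is below every Wtap-CKO heart. Ect2 was not called without Wtap-flox 1 either (-0.39, adjusted p = 0.152).

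The log2 fold changes of the members differed in size, but whether the members moved by different amounts was not tested. The intervals of the extremes, Hmmr (-1.52 to -0.49) and Ube2c (-0.74 to 0.66), overlap. To describe the spread, each gene was set against the mean of the 44 genes in the same library, with no test, since the members define that mean. Some genes must then lie above it and others below, and the counts have no share over all genes beside them. On this scale 7 genes were lower in all Wtap-CKO hearts than in all Wtap-flox hearts, 8 were higher and 29 overlapped. The 7 were Hmmr (difference -0.48 on the log2 scale), Spc25 (-0.31), Kif11 (-0.30), Top2a (-0.26), Racgap1 (-0.20), Nusap1 (-0.18) and Bub1 (-0.18). The 8 were Ube2c (0.48), Tacc3 (0.38), Cenpa (0.33), Ect2 (0.31), Birc5 (0.27), Tpx2 (0.17), Dlgap5 (0.14) and Aurkb (0.13). In Wtap-flox 1 the mean log2 deviation from the average over the 6 libraries was 0.03 for the condensation genes, -0.06 for central spindle genes, -0.13 for the passenger complex, -0.18 for the checkpoint genes and -0.28 for the other kinases. All 8 roles were between 0.30 and 0.64 in Wtap-flox 2 and 3, and between -0.36 and -0.01 in the Wtap-CKO libraries. The size of the fold change had little relation to expression level or gene length over the 44 genes (Spearman rho -0.05 and -0.12, given as a description, since the genes share 6 libraries).

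**Figure D4:**
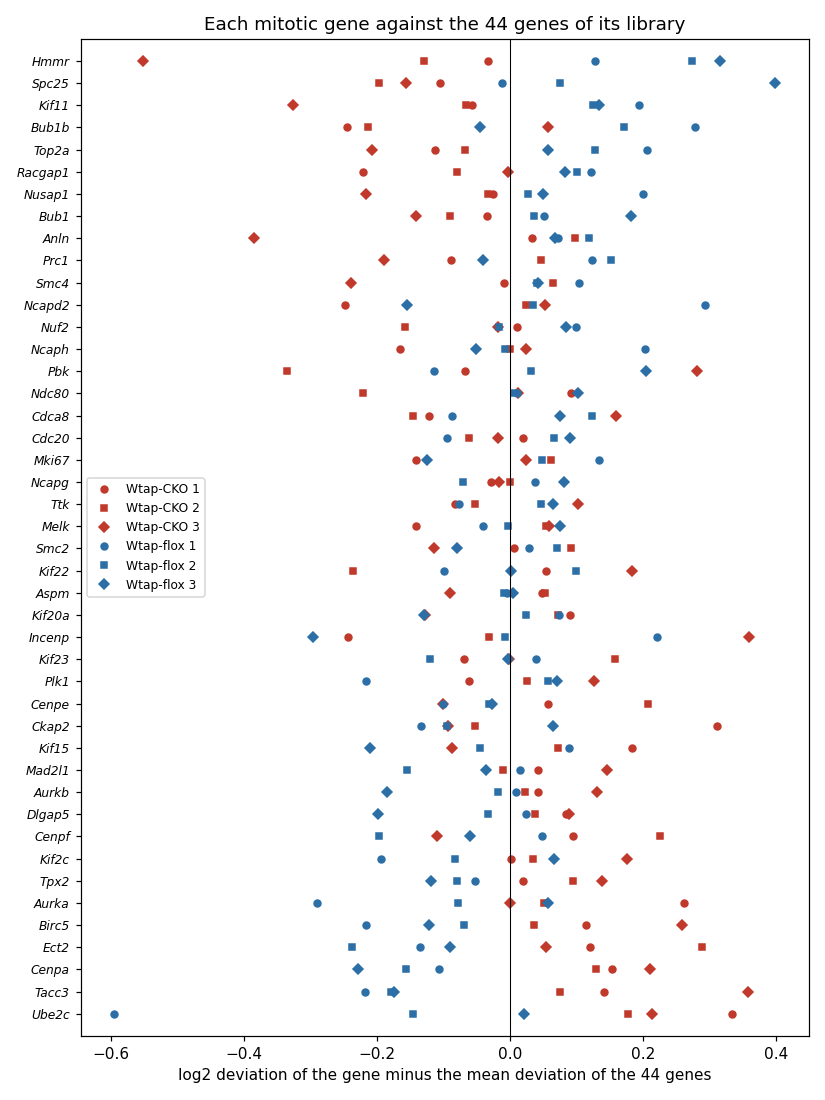
Deviation of each gene from its own mean over the 6 libraries minus the mean deviation of the 44 genes in the same library (log2 units, x axis), with genes in order of the difference between groups; red symbols are Wtap-CKO libraries and blue symbols Wtap-flox. Red lies left of blue for Hmmr at the top (difference -0.48) and right of blue for Ube2c at the bottom (0.48).

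Other genes of cell division were also read. Lists of 163 further division genes had 156 tested, of which 28 were lower and 1 was higher, with a median log2 fold change of -0.28. Over all tested genes, 6.69% were called lower and 9.91% higher, and these shares stand beside the counts of each list below. Among 33 tested kinetochore and centromere subunits, 8 were lower and 0 higher (median -0.39), with Kntc1, which recruits dynein to kinetochores, at 2.69 ± 0.269 FPKM in Wtap-CKO and 5.31 ± 0.593 FPKM in Wtap-flox hearts (SD, n = 3 each). Its log2 fold change was -0.77 (limma adjusted p = 0.00437), and Cenpp (-0.86), Knl1 (-0.62) and Ska2 (-0.82) were also lower. Mis12, in the same list, was not called (0.18). Cohesin, separase and condensin II genes had 7 of 18 lower (median -0.29), led by Esco2, the cohesin acetyltransferase of S phase. Esco2 was at 1.85, 1.74 and 1.95 FPKM in Wtap-CKO hearts and 4.00, 5.30 and 6.26 FPKM in Wtap-flox hearts (-1.10, adjusted p = 0.00234). Ncapd3 (-0.67) and Ncapg2 (-0.71) of condensin II and the cohesin ATPase Smc3 (-0.53) were also lower.

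Centrosome and spindle nucleation genes had 7 of 29 lower (median -0.29), where 6.69% of all tested genes were lower. The scaffold Pcnt was at 2.24, 3.35 and 3.08 FPKM in Wtap-CKO hearts and 6.94, 5.74 and 4.88 FPKM in Wtap-flox hearts (-0.82, limma adjusted p = 0.01003). In Pcnt, and in Numa1 (-0.63) and Tubgcp2 (-0.63), Wtap-flox 1 was the highest library, unlike in any of the 44 members. Cdk5rap2 was also lower (-0.46), and Cep63 was not called (0.12). Mitotic entry regulators had 2 of 14 lower (median -0.40): the kinase Wee1 (-0.74, adjusted p = 0.0176) and cyclin A2, Ccna2, which was at 18.1, 17.8 and 16.8 FPKM in Wtap-CKO hearts and 22.2, 35.2 and 39.3 FPKM in Wtap-flox hearts (-0.80, adjusted p = 0.0259). Gtse1 (-0.60), Ccnf (-0.42) and Cks1b (0.08) in that list were not called. Of 6 tested mitotic kinesins 0 passed (median -0.45), with 4 lower at an unadjusted p below 0.05 and 2 lower by limma-voom. The shares over all tested genes were 14.2% lower at that unadjusted level and 8.46% lower by limma-voom.

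Lists for the anaphase-promoting complex and for the cytokinetic ring had medians near 0. At an unadjusted p below 0.05, 14.2% of all tested genes were lower and 17.5% higher. Subunits and cofactors of the anaphase-promoting complex had 0 of 17 called (median -0.04; 2 lower at an unadjusted p below 0.05, 0 by limma-voom), with Cdc23 at -0.25, Anapc1 at -0.30 and Cdc16 at 0.21. Genes of the cytokinetic ring and of abscission had 0 of 21 called (median 0.05; 2 lower and 1 higher at an unadjusted p below 0.05, 1 lower by limma-voom), with Cit at -0.44 and Vps4a at 0.31. Across 21 other settings of the fit these counts ranged from 0 to 3 lower for the anaphase-promoting complex and from 0 to 2 lower and 0 to 1 higher for the ring.

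**Figure D5:**
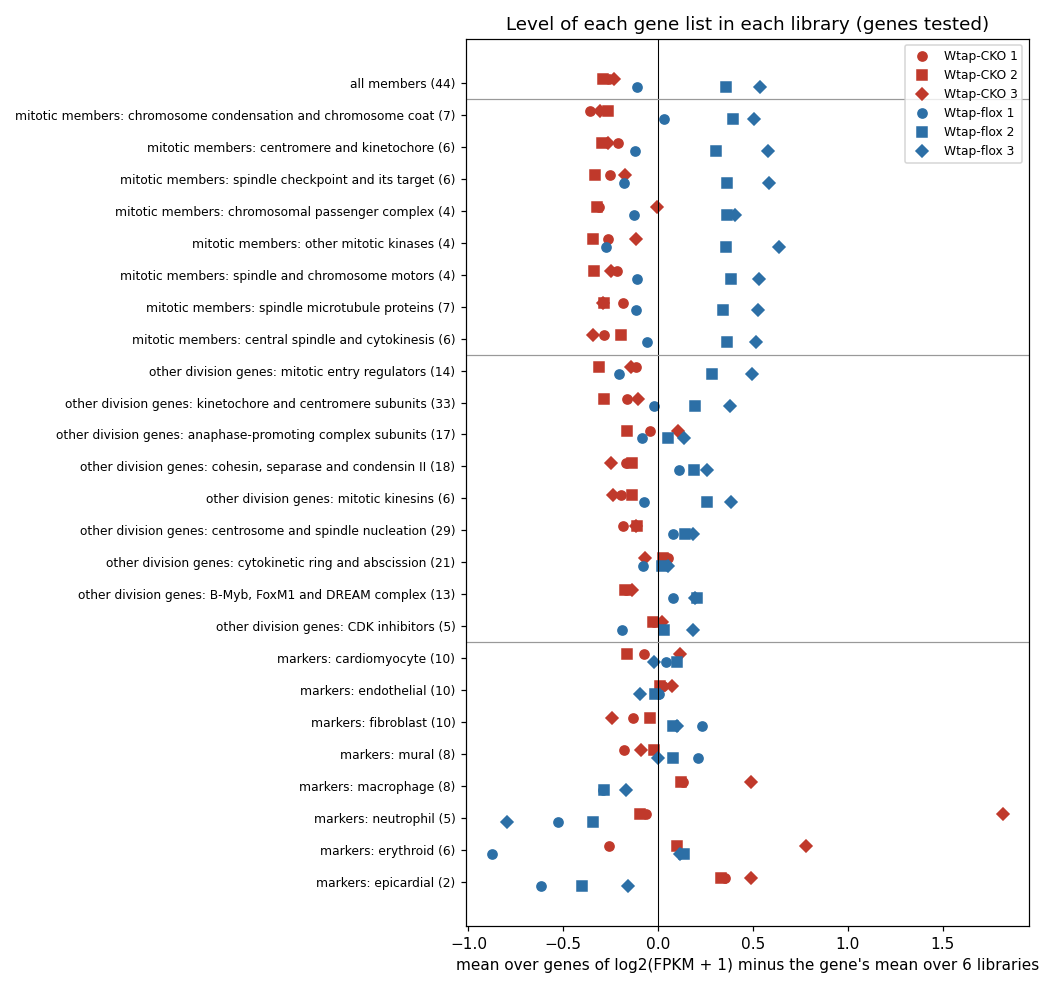
Mean over the genes of a list of log2(FPKM + 1) minus the mean of each gene over the 6 libraries (x axis), for each library, with the number of genes tested in brackets; red symbols are Wtap-CKO and blue symbols Wtap-flox libraries. The 44 members lie at -0.26, -0.29 and -0.23 in Wtap-CKO 1 to 3 and at -0.11, 0.36 and 0.54 in Wtap-flox 1 to 3, and neutrophil markers in Wtap-CKO 3 lie at 1.82.

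Marker genes of cell types were read in the same libraries, because the makeup of a whole heart can differ between samples. Over all tested genes, 6.69% were called lower and 9.91% higher. Cardiomyocyte markers had 0 of 10 called in limma (1 lower at an unadjusted p below 0.05 and 1 lower by limma-voom), with a mean log2 deviation of -0.07, -0.16 and 0.11 in Wtap-CKO 1 to 3 and 0.04, 0.10 and -0.02 in Wtap-flox 1 to 3. Fibroblast markers had 3 of 10 lower in Wtap-CKO hearts (Lum, Dcn and Dpt), and their summed level was 598 to 787 FPKM in Wtap-CKO and 783 to 898 FPKM in Wtap-flox hearts. Endothelial markers had 1 lower (Kdr) and 1 higher (Emcn) of 10, and mural markers 1 lower (Abcc9) and 1 higher (Cspg4) of 8. Macrophage markers had 3 of 8 higher (C1qb, C1qa and Mrc1). Their summed level was 62.9, 55.3 and 88.7 FPKM in Wtap-CKO 1 to 3 and 39.2, 38.7 and 43.3 FPKM in Wtap-flox 1 to 3, so Wtap-CKO 3 was the highest here too. Neutrophil markers had 1 of 5 tested higher (Retnlg) and were summed to 15.5, 13.2 and 89.9 FPKM in Wtap-CKO 1 to 3 and 9.03, 11.6 and 5.94 FPKM in Wtap-flox 1 to 3, so Wtap-CKO 3 stands further apart. Epicardial markers had 1 of 2 tested higher (Krt19), and the 8 lymphocyte markers were all below the level needed for a test.

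Erythroid markers had a summed level of 1227, 1462 and 2209 FPKM in Wtap-CKO 1 to 3 and 661, 1546 and 2173 FPKM in Wtap-flox 1 to 3. Of their 6 tested genes, 0 were called by limma or limma-voom and 0 had an unadjusted p below 0.05. Like the mitotic genes, they were lowest of the Wtap-flox libraries in Wtap-flox 1. So were the summed epicardial markers (4.13, 4.68 and 5.38 FPKM in Wtap-flox 1 to 3) and 41.6% of all tested genes. No marker of any list was at 0 in all libraries. The part of these cell types in the level of the mitotic genes was not tested.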

How the data were processed

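Poly(A)-selected RNA of 6 heart libraries was read as pairs of 150 bases. The authors deposited FPKM values per gene and library. Per the submitters' processing notes, CASAVA, HISAT2 2.0.5, featureCounts 1.5.0-p3 and DESeq2 1.20.0 were used. Multiplied by gene length, 100.0% of these values fell on whole steps of a constant per library, within 0.01 of a step, so reads were recovered (15649028 to 18045599 per library; 176 to 5246 per member and library). The implied library sizes are proportional to median-ratio size factors. Strandedness is not stated. GRCm39 is the build in those notes, yet 94.8% of 20473 coding genes lay within 1000 bases of their GRCm38.p6 place, and 3.30% of 21728 in GRCm39. Coordinates are GRCm38. Shared exon bases come from a GRCm39 annotation and describe gene structure only. Its exon lengths can differ from the gene lengths behind the FPKM, so the shared part of a counted gene is not known.

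Genes whose mean reached 1 FPKM were tested with limma 3.58.1 (R 4.3.3) on log2(FPKM + 1), with trend and robust moderation, two-sided, over all 12568 genes together, with a threshold of 0.05. Fold changes have Wtap-CKO on top and are understated for low genes by the pseudocount. Tables and figures used Python 3.11.15, pandas 2.3.3, scipy 1.17.1 and matplotlib 3.10.9. The procedure was tested on simulated data. Members, lists and roles were chosen with earlier results of these data known. Of 242 symbols beside the members, 236 were found as written, 5 under an older symbol and 1 was not found. Values per library are given for members that passed and, in each role, for the member with the highest mean and the one with the largest adjusted p. From each other list up to 4 genes of smallest adjusted p may be named, and the first that went the other way. No per-sample column was left unused.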

Additional observations from a re-analysis of the deposited data

How the results depend on the processing

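The direction of the members changed little with the processing, and the number called changed much. Against 15 members lower, TPM scaling gave 33 (12.7% of all tested genes), array weights 35 (13.3%), limma-voom on the recovered reads 23 (8.46%), upper-quartile scaling 28 (9.51%), no filter on low values 5 (1.78%), an adjusted p under 0.01 gave 2 (2.16%) and an adjusted p under 0.1 gave 28 (10.6%). Leaving out a library gave 4 to 33. Members higher were 0 under all 21 alternatives. Top2a and Bub1b were lower in all 21, and Ube2c, Cenpa, Ect2, Birc5, Aurka, Ckap2 and Tacc3 in none. The median of the members was between -0.72 and -0.39 without a library. Only Ube2c and Tacc3 turned direction: without a library Ube2c gave -0.40 to 0.23 and was above 0 without Wtap-CKO 2 (0.0048), Wtap-flox 2 (0.05) or Wtap-flox 3 (0.23), and Tacc3 gave -0.34 to 0.0036, above 0 without Wtap-flox 3. The cause was not tested. Over all genes, 2086 were called; array weights gave 3732, no filter 1206, an adjusted p under 0.01 gave 785, and leaving out a library 1189 to 2016. TPM scaling moved the median of all tested genes to -0.14, and the members' median to -0.67. It also turned the split of calls over all genes to 1601 lower and 793 higher, and upper-quartile scaling to 1195 and 988, against 841 and 1245. Of the values per member and alternative, 735 kept direction and side of the threshold, 103 passed it only in the alternative and 73 lost it.

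Hearts of the 2 groups share library numbers, and whether the numbers pair hearts is not stated. Same-numbered libraries did not deviate together (correlation of deviations -0.22, -0.08 and -0.08 for numbers 1 to 3). Libraries of unlike number gave -0.14 to 0.26. With 3 libraries per group such values cannot decide whether the hearts were paired. With the replicate block 15 members were lower, 12 of them among the 15, and 1673 genes were called in all.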

Other observations

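Regulators that act on late cell cycle promoters were read beside the members. Of 13 tested genes of the B-Myb, FoxM1 and DREAM complexes, 3 were lower in Wtap-CKO hearts and 0 higher, with a median log2 fold change of -0.35. Over all tested genes, 6.69% were called lower and 9.91% higher. The pocket protein Rbl1 had 3.75, 2.93 and 3.45 FPKM in Wtap-CKO hearts and 5.51, 7.83 and 7.19 FPKM in Wtap-flox hearts (-0.83, limma adjusted p = 0.00644). The MuvB subunits Lin9 (-0.66, adjusted p = 0.0146) and Lin54 (-0.48, adjusted p = 0.0319) were also lower. Foxm1, an activator of late cell cycle genes, was not called (-0.43, adjusted p = 0.0635), nor was E2f5 (0.18). The number lower in this list was between 1 and 5 over the alternatives.

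Of 5 tested inhibitors of cyclin-dependent kinases, 1 was lower and 1 higher. At an unadjusted p below 0.05, 2 were lower and 2 higher, against 14.2% and 17.5% of all tested genes. The 2 not called were Cdkn1b (-0.43, limma adjusted p = 0.0974), with overlapping groups, and Cdkn2d (0.49, adjusted p = 0.129). Cdkn2d was at 48.1, 44.7 and 48.5 FPKM in Wtap-CKO hearts and 23.7, 36.7 and 42.0 FPKM in Wtap-flox hearts. Cdkn1a, the inhibitor p21, had 24.0, 28.7 and 36.0 FPKM in Wtap-CKO hearts and 14.8, 16.7 and 14.6 FPKM in Wtap-flox hearts, a log2 fold change of 0.89 (limma adjusted p = 0.0068). Cdkn2c, an inhibitor of the cyclin D kinases that is itself transcribed in cycling cells, had 14.5, 14.1 and 15.6 FPKM in Wtap-CKO hearts and 24.6, 30.0 and 37.3 FPKM in Wtap-flox hearts (-0.99, adjusted p = 0.00432). In Cdkn1a and Cdkn2c, as in Cdkn2d, the groups do not overlap. Wtap-flox 1 was the lowest Wtap-flox library in Cdkn2c, as in the members, and lay between the other Wtap-flox libraries in Cdkn1a.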
